A study of Mus musculus with 23 samples.

Results

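Neutrophils sorted from the lungs and from the bone marrow (BM) of wild-type (WT) mice were compared gene by gene, with 3 libraries from each tissue. A gene entered the comparison if it reached a level of 1 in at least 3 of these 6 libraries, in fragments per kilobase of transcript scaled to library depth (FPKM), and 8236 of the 21878 genes in the table did. The table also holds 3 libraries of peripheral blood (PB) neutrophils, which are given here as levels and enter no test. The labels name the mice as wt and the tissue as lung, bone marrow or peripheral blood, with no age or sex. No treatment or transgene is named for them. The study's methods describe adult mice of both sexes. The strain was C57BL/6J, lungs were perfused, and cells were sorted as CD45+CD11b+Ly6G+. The methods also describe a neutrophil negative selection kit before the sort for lung and PB suspensions and not for BM, and an enzyme digestion of lung tissue that may or may not have been used for these libraries. Handling and tissue therefore cannot be told apart in this design.

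Neutrophils are made in the BM, where dividing precursors fill their granules in sequence and then stop dividing. Azurophil granules are made first, specific granules next, and gelatinase granules and secretory vesicles last, so that the transcripts of granule proteins mark how far a cell has matured. Mature cells enter the blood, and many linger in the narrow capillaries of the lung, where they can respond to stimuli by secreting chemokines and cytokines.

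The reads recovered from the FPKM numbered 16501275 to 17160591 per lung library and 18371658 to 19330130 per BM library, and replicates of a tissue varied by about 2.21% (lung) and 2.37% (BM) beyond counting error. The labels do not say that the replicates were separate animals, but the study describes them as independent mice. The p values measure the spread between these libraries. FPKM summed to 410782 to 420006 per lung library and to 488625 to 509864 per BM library. The 10 most abundant genes held 21.8% to 22.7% of the sum in lung and 38.6% to 40.9% in BM, and 6887 to 6899 genes reached an FPKM of 1 in lung libraries against 8080 to 8110 in BM.

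A differentially expressed gene (DEG) had an adjusted p below 0.05 from limma and an absolute log2 fold change above 1 on log2(FPKM + 1), a scale on which changes of genes near 0 are understated. By this rule 45.9% of the tested genes were DEGs, 9.86% higher and 36% lower in lung neutrophils, and these shares are the background for every count below. The lung libraries did not overlap the BM libraries for 92.9% of the genes, in either direction. The largest adjusted p among all DEGs was 0.000786 (limma), so that adjusted p values are not repeated for each gene. The median log2 fold change of all tested genes was -0.70. When the FPKM were rescaled so that the median ratio between libraries was 1, the median was -0.17, and 16.5% of genes were higher and 17.2% lower in lung. All 812 genes called higher and 1415 of the 2965 called lower were called in the same direction on both scales, and none changed direction. A fit of the recovered reads with limma-voom called 1812 genes higher and 1820 lower.

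Of the tested genes, 6350 reached the minimum in all 6 libraries, and among these 615 were higher and 1943 lower in lung. A further 1210 genes reached it only in BM libraries, of which 843 were called lower in lung. Another 235 reached it only in lung libraries, of which 169 were called higher. By the filter such genes could not be called in the other direction, and the same holds for members of the lists below that entered this way. At the edge of the filter, 1459 genes reached the minimum in exactly 3 libraries, and 176 genes were left out because they reached it in 2.

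**Figure D1:**
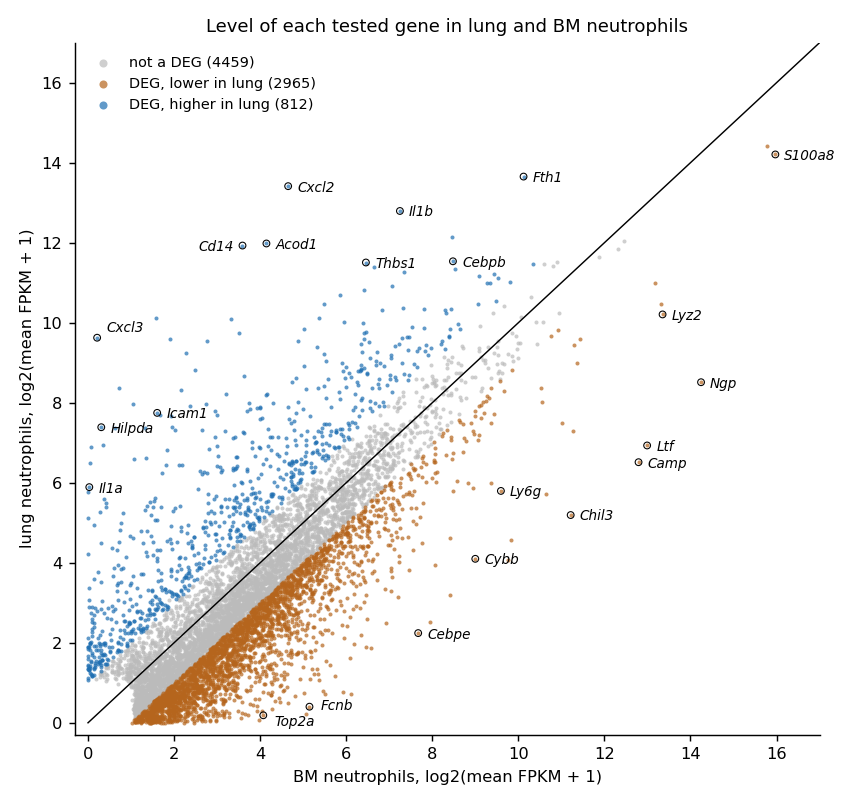
Mean level of each of the 8236 tested genes in BM (horizontal axis) and lung neutrophils (vertical axis), both as log2(mean FPKM + 1) over 3 libraries, with the line of equal levels. Blue points are the 812 DEGs higher in lung and brown points the 2965 DEGs lower in lung. Labelled genes are outlined, and *Cxcl2*, *Cxcl3* and *Cd14* lie far above the line while *Ltf*, *Camp* and *Ngp* lie far below it.

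Both sets of libraries carried the transcripts of neutrophils. *S100a8* and *S100a9*, which encode the calprotectin subunits that fill the neutrophil cytosol, were the 2 most abundant genes in either tissue. *S100a8* had 20551, 18028 and 18122 FPKM in the lung libraries and 69455, 60542 and 62874 in the BM libraries. Its level was lower in lung in every library, with a log2 fold change of -1.77 (SE 0.06). *S100a9* was at -1.36 and, after rescaling, at -0.70, where it was not a DEG. The actin gene *Actb* and the thymosin gene *Tmsb4x* were also among the 10 most abundant genes of both tissues, and the other 6 differed. In lung these were *Fth1*, the heavy chain of the iron store ferritin, the chemokine gene *Cxcl2*, the cytokine gene *Il1b*, the MAP kinase phosphatase gene *Dusp1*, *Acod1* and *Cd14*. In BM these were *Ngp*, *Lyz2*, *Lcn2*, *Retnlg*, *Ltf* and *Camp*, which encode granule or secreted antimicrobial proteins.

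The 17 markers of precursors and immature neutrophils summed to 1016 to 1054 FPKM in lung and to 38100 to 39271 in BM, and 14 of the 15 tested were DEGs lower in lung. The exception was *Prtn3*, at -0.18. In bulk samples, fewer cells of a type and less RNA per cell cannot be told apart. The 17 markers of mature neutrophils summed to 36594 to 38299 FPKM in lung and 19410 to 20569 in BM, with 9 higher, 4 lower and 4 neither. *Cxcl2*, *Il1b* and *Cd14* are among these 17, so that the sum also holds genes of the chemokine, cytokine and receptor lists. Of the antigens used for the sort, *Ly6g* had 55.0, 55.7 and 53.0 FPKM in lung and 781, 760.4 and 775 in BM. All lung libraries lay below all BM libraries, with a log2 fold change of -3.80 (SE 0.03). *Cd177*, which encodes a surface glycoprotein of neutrophils stored in specific granules, had 51.6, 51.6 and 51.8 FPKM in lung and 1584, 1616 and 1571 in BM, a log2 fold change of -4.92. *Itgam*, which encodes the sort antigen CD11b, was at -1.04 and at -0.38 after rescaling, where it was not a DEG. *Ptprc*, which encodes the sort antigen CD45, went the other way, at 0.70, and was not a DEG on the FPKM scale. The identity list of 12 neutrophil genes summed to 45679 to 49779 FPKM in lung and 130526 to 148503 in BM. All 12 were tested, with 2 higher, 7 lower and 3 neither.

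Markers of other cell types were summed for each library, and the single markers named for them were picked after their values were seen. The summed FPKM of the markers of B cells was 0.263 to 0.363 in lung and 0.646 to 1.08 in BM, and that of T and NK cells 2.33 to 2.67 and 5.59 to 6.67. Those of endothelial cells summed to 4.36 to 4.54 in lung and 10.7 to 11.6 in BM, and those of lung epithelium to 13 to 14.1 and 30.4 to 32.4. *Sftpc*, the surfactant protein gene of alveolar type II cells, had 0.871, 0.580 and 0.980 FPKM in lung and 0 in all BM libraries, and was not tested. The 3 epithelial markers tested went the other way. *Ager* and *Sftpb* were DEGs lower in lung, at -1.707 and -1.418, and *Hopx*, at -0.847, was not a DEG. Markers of monocytes and macrophages summed to 126 to 129 in lung, 156 to 172 in PB and 64.4 to 69.1 in BM, of which *Csf1r* and *Adgre1* made up most. These 2 were DEGs higher in lung, at 1.185 and 1.353. The other 3 markers tested, *C1qa*, *C1qb* and *C1qc*, were DEGs lower in lung, at -1.718, -1.821 and -1.840. *Ccr2* and *Cx3cr1* were below 0.5 FPKM in every library. The sum for alveolar macrophages was higher in BM (2426 to 2549) than in lung (76.9 to 81.0) and *Chil3*, a gene of neutrophil precursors as well, made up most of it, while *Marco* and *Mrc1* were below 0.1 FPKM in every lung library. The sum for mast cells and basophils was 2573 to 2621 in lung and 363 to 368 in BM and rested on *Hdc*, the histidine decarboxylase gene and a DEG at 2.83, since 5 of its 9 genes, among them *Cma1* and *Fcer1a*, were at 0 in all 6 libraries.

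**Figure D2:**
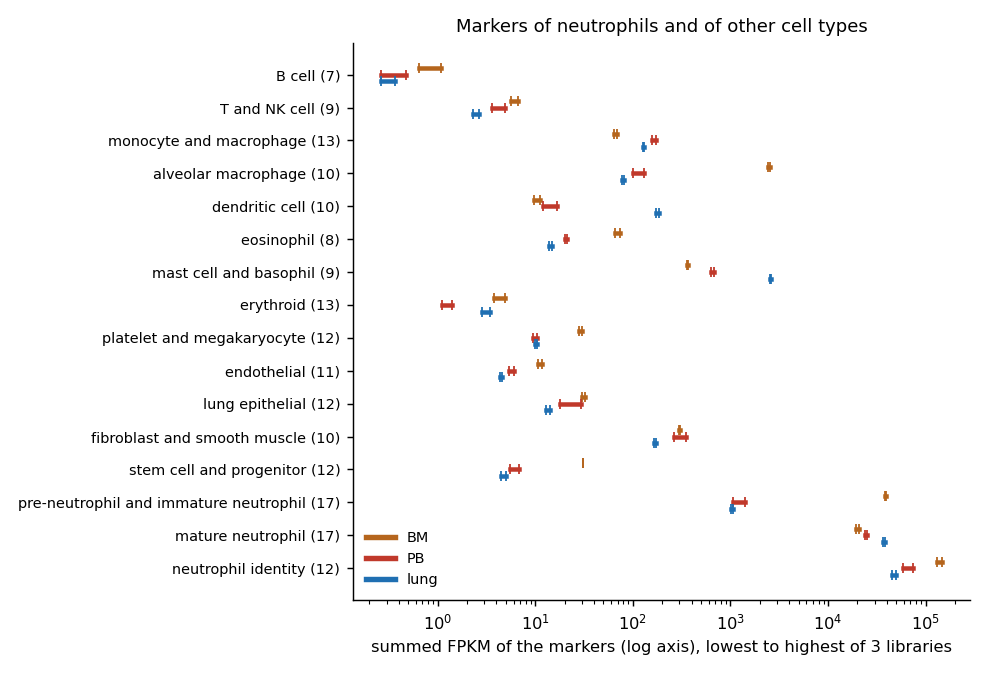
Summed FPKM of the markers of neutrophils and of other cell types on a log axis, as the range over 3 libraries of BM (brown), PB (red) and lung (blue), with the number of markers in the table in parentheses. Markers of precursors and immature neutrophils ran from 1016 to 1054 in lung and from 38100 to 39271 in BM, and markers of dendritic cells from 174 to 186 in lung and from 9.81 to 11.3 in BM.

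Specific granule genes were low in lung neutrophils. Of 13 tested, 12 were DEGs lower in lung and none was higher, with a median log2 fold change of -4.29 against -0.70 over all genes, and 12 were also lower after rescaling. *Hp*, the haptoglobin gene, was the exception at -0.69. *Camp*, which encodes the precursor of the antimicrobial peptide cathelicidin, had 93.6, 91.1 and 86.5 FPKM in lung, 105, 98.6 and 133 in PB and 7153, 6955 and 7184 in BM. *Ltf*, the gene of the iron-binding lactoferrin, had 122, 120.1 and 122 FPKM in lung, 128, 119 and 169 in PB and 8252, 8190 and 8008 in BM. PB libraries lay near the lung level for both genes and far from BM, and the lung and BM libraries did not overlap. The log2 fold change was -6.28 (SE 0.03) for *Camp* and -6.06 (SE 0.02) for *Ltf*, whose mean FPKM was 67.3 times higher in BM. *Ngp*, which encodes a neutrophilic granule protein of the cystatin and cathelicidin superfamily, had 374, 361 and 359 FPKM in lung and 20012, 19179 and 19081 in BM, and its log2 fold change was -5.73. *Lcn2*, the gene of the siderophore-binding lipocalin, fell less, from 10546, 9887 and 10214 FPKM in BM to 1473, 1419 and 1376 in lung, a log2 fold change of -2.84. *Itgb2l* and *Chil3* of the same list were at -5.21 and -6.02.

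*Camp*, *Ngp* and *Ltf* lie near one another on chromosome 9 of GRCm38, at chr9:109847377-109849456, chr9:110419808-110423012 and chr9:111019292-111042766 by the RefSeq annotation. Their start regions are shown because these members fell together and because C/EBP factors are known regulators of specific granule genes. The 250 bases before the start site (RefSeq, GRCm38.p6) are printed on the strand of the gene, with matches to the C/EBP motif TTGCNNAA on either strand in capitals. They lie at chr9:110419558-110419807 (plus strand) for *Ngp* and chr9:111019042-111019291 (plus strand) for *Ltf*, and the same region of *Camp* held no match.
Ngp: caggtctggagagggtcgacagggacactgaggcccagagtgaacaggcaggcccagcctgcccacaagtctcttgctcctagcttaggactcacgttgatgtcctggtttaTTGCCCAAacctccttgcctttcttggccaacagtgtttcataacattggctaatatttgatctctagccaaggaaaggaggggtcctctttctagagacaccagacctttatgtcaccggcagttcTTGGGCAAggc
Ltf: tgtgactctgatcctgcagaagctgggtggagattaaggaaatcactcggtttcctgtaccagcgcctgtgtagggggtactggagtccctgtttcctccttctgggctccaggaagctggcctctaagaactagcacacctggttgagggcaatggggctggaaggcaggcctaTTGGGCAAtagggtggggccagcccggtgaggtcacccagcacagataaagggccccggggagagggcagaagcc
In windows of 300 bases, which add 50 bases after the start site, 4 of the 11 promoters found for 10 of the 13 genes held the motif (36.4%), against 10.8% of all 32851 promoters in the RefSeq table. A match is a run of letters and not a site shown to be bound.

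Genes of the other granule classes changed unevenly. Of 10 azurophil granule genes, which are transcribed in promyelocytes, 6 were tested, and *Mpo*, *Elane*, *Ctsg* and *Cst7* were below the minimum in both tissues. *Serpinb1a*, which encodes an inhibitor of the granule proteases, fell from 249, 245 and 249 FPKM in BM to 4.79, 4.81 and 4.59 in lung, with a log2 fold change of -5.44 (SE 0.03). *Srgn*, the core protein of the granule proteoglycan serglycin, went the other way, from 135, 132 and 129 FPKM in BM to 2020, 1898 and 1884 in lung, with a log2 fold change of 3.86. Among gelatinase granule and secretory genes, 7 of 11 fell and 2 rose. *Lyz2*, the lysozyme gene, was at -3.14, and *Mmp9*, the gelatinase itself, at -1.83, while *Slc11a1*, which encodes a divalent metal transporter of the phagosome, was at 2.37 and the sheddase gene *Adam8* at 1.27. The ficolin gene *Fcnb* had 36.5, 35.0 and 31.8 FPKM in BM and 0.359, 0.419 and 0.187 in lung.

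Genes of dividing cells were low in lung neutrophils. All 29 mitosis genes were tested, of which 27 were lower in lung and none was higher. After rescaling 27 were lower and 1 was higher. The median log2 fold change of the 29 was -2.52. At least 13 of them passed the filter through BM alone, with a lung mean below 0.5 FPKM. These 13 could not have been called higher. *Top2a*, the topoisomerase that untangles chromosomes before they separate, had 0.201, 0.0891 and 0.127 FPKM in lung (at most 18 reads in a library), 0.0432, 0.104 and 0.0411 in PB and 15.7, 16.3 and 15.5 in BM. *Ube2c*, which encodes the ubiquitin-conjugating partner of the anaphase-promoting complex, had 0.940, 0.438 and 0.391 FPKM in lung and 29.6, 23.5 and 27.7 in BM. No lung library overlapped a BM library for either gene, and the log2 fold changes were -3.89 (SE 0.07) and -4.14 (SE 0.13). The 2 mitosis genes that were not DEGs were *Kif23*, at 0.72, and the centromeric histone gene *Cenpa*, which was lower in every lung library than in any BM library but missed the fold threshold, at -0.70. Of 18 DNA replication genes tested, 12 fell and none rose, and *Rrm2*, a subunit of ribonucleotide reductase, fell from 7.6, 8.83 and 8.29 FPKM to 0.214, 0.267 and 0.195. *Pcna*, the sliding clamp of the replication fork, had 17.6, 19.6 and 17.7 FPKM in lung and 8.98, 9.16 and 9.72 in BM, so that its libraries lay higher in lung without reaching the fold threshold on the FPKM scale.

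The start regions of *Top2a* and *Ube2c* are shown because cell cycle genes of the G2 and M phases are known to carry a cell cycle homology region (CHR). Matches to its core TTTGAA on either strand are in capitals, in chr11:99024190-99024439 (minus strand) for *Top2a* and chr2:164769679-164769928 (plus strand) for *Ube2c*.
Top2a: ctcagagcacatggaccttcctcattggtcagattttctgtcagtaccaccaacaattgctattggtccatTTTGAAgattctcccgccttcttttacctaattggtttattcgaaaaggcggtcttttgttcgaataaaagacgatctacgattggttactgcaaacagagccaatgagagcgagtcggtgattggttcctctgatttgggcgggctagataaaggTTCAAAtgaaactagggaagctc
Ube2c: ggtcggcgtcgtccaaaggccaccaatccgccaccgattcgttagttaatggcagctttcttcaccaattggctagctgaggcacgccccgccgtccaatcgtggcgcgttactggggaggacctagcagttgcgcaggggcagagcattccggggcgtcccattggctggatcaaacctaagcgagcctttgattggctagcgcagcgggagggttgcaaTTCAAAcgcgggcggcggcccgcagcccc
In the full windows of 300 bases the motif was present in 19 of 25 promoters found for 24 of the mitosis genes (76%), against 12% of the promoters of all tested genes and 17.9% of the whole RefSeq table. The motif CCAAT was present in 84% of the same promoters, against 37.2% for all tested genes.

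Transcription factors of granulopoiesis split. Of 22 tested, 4 rose and 10 fell. *Cebpe*, which is required for the specific granule stage, had 3.72, 4.24 and 3.23 FPKM in lung, 14.5, 15.5 and 16.3 in PB and 209, 194 and 206 in BM. *Cebpb*, which drives emergency granulopoiesis and inflammatory genes, had 2936, 3006 and 2961 FPKM in lung, 957, 997 and 799.6 in PB and 352, 359 and 357 in BM. These 2 members of a family thus moved in opposite directions, *Cebpe* by -5.44 (SE 0.07) and *Cebpb* by 3.06 (SE 0.02), and neither pair of groups overlapped. *Cebpd* was at -2.13 and was highest in PB, with 271, 259.8 and 286 FPKM. *Klf5* fell by 3.84 on the log2 scale. *Hif1a*, the oxygen-regulated subunit of HIF-1, and *Mxd1*, an antagonist of MYC that is induced when myeloid cells stop dividing, rose by 1.93 and 1.41, and *Klf4* was the other member that rose, at 1.49.

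**Figure D3:**
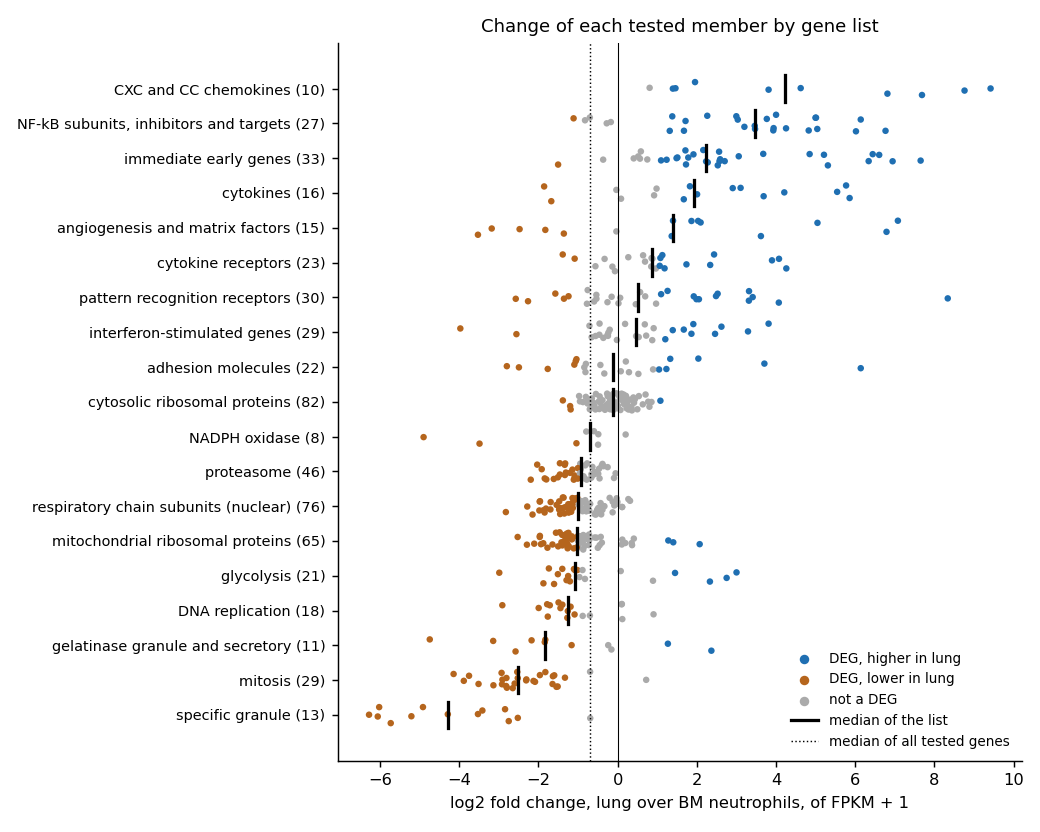
Log2 fold change of FPKM + 1 between lung and BM neutrophils (horizontal axis) for each tested member of 19 gene lists (rows, number of tested members in parentheses), as the difference of means over 3 libraries per tissue. Blue and brown points are DEGs higher and lower in lung, grey points are not DEGs, bars are list medians, and the dotted line is the median of all tested genes at -0.70. The medians run from -4.29 for specific granule genes to 4.22 for chemokines.

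Chemokine genes stood at the other end. Of 10 tested, 9 were higher in lung and none was lower, with a median log2 fold change of 4.22, and all 10 were higher after rescaling. *Cxcl2*, which encodes a ligand of the neutrophil receptor CXCR2, had 11222, 10565 and 10947 FPKM in lung, 836, 918 and 562 in PB and 23.9, 23.3 and 25.2 in BM, so that its mean was 452 times higher in lung than in BM. *Cxcl3*, its neighbour and another CXCR2 ligand, had 806, 777 and 783 FPKM in lung, 2.94, 1.39 and 0.951 in PB and 0.102, 0.0508 and 0.321 in BM, where it rested on 1 to 6 reads. *Cxcl1* had 122, 122 and 111 FPKM in lung and 1 read in each BM library. The groups were far apart for all 3 genes, and the log2 fold changes were 8.76 (SE 0.03), 9.42 (SE 0.07) and 6.82 (SE 0.05), and the values for *Cxcl3* and *Cxcl1* depend on the pseudocount. Among CC chemokines, *Ccl3*, a ligand of CCR1, rose from 2.44, 2.82 and 3.03 FPKM in BM to 802, 751 and 767 in lung, with a log2 fold change of 7.69. *Ccl6* had the highest BM level of the list, 568, 544 and 548 FPKM, and at 0.81 it was the member that did not pass the fold threshold. Chemokine genes of other cell types, *Ccl5*, *Ccl17*, *Ccl22*, *Cxcl5* and *Cxcl9*, were below 1 FPKM in every library.

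*Cxcl3*, *Cxcl1* and *Cxcl2* lie in 1 cluster on chromosome 5, at chr5:90786101-90788093, chr5:90891245-90893121 and chr5:90903899-90905938. The start regions of *Cxcl2* (chr5:90903649-90903898, plus strand) and *Cxcl3* (chr5:90785851-90786100, plus strand) are shown because these 2 genes rose most and carry the same run of letters matching the NF-kB consensus, in capitals, where matches on both strands overlap by all but 1 base.
Cxcl2: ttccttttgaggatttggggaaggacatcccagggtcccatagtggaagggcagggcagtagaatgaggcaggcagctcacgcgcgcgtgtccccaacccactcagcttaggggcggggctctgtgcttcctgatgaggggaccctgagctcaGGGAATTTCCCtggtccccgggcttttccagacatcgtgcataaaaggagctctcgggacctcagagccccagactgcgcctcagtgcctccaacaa
Cxcl3: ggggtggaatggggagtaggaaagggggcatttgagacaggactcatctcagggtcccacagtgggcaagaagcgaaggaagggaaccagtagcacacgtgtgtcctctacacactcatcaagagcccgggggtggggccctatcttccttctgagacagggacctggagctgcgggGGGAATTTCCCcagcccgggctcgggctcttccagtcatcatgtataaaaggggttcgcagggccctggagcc
Of the promoters found for 7 of the 10 chemokine genes, 5 held the NF-kB consensus on either strand (71.4%), against 4.51% of all promoters in the table. The share was 10.4% among promoters of all DEGs higher in lung, 4.11% among those of DEGs lower in lung and 5.2% among those of all tested genes. The AP-1 motif TGANTCA was found in 8.69%, 5.02% and 5.08% of these 3 sets. These shares describe letters in the window only.

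Cytokine genes rose in 10 of 16 cases and fell in 2. *Il1b*, the precursor of interleukin-1 beta, had 7192, 7070 and 7031 FPKM in lung, 2946, 2927 and 2696 in PB and 151, 153 and 149 in BM, a log2 fold change of 5.55 (SE 0.02). *Il1a*, the other interleukin-1 gene, had 55.9, 59.1 and 59.9 FPKM in lung and at most 3 reads in a BM library. *Il23a*, which encodes the p19 subunit of interleukin-23, had 53.7, 52.9 and 54.3 FPKM in lung and no read in any BM library, so that no fold change is given. *Il1b* was already high in PB, while *Il1a* and *Il23a* had at most 0.0894 and 0.291 FPKM there. *Osm*, which encodes oncostatin M, rose from 79.1, 82.0 and 81.4 FPKM in BM to 717, 701 and 693 in lung, and *Csf3*, the gene of G-CSF, had 17.9, 17.7 and 17.3 FPKM in lung and at most 1 read in a BM library. *Csf3* was chosen after its values were seen. *Il6*, named by the study, had 5 to 7 reads per lung library and none in BM, and was not tested. The genes that fell were *Il27*, at -1.86, and *Tnfsf13b*, the gene of the B cell survival factor BAFF, at -1.68.

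Genes of the NF-kB system rose in 22 of 27 tested cases, on either scale, with a median log2 fold change of 3.46. The list was put together in part from known NF-kB targets. *Nfkbia*, the inhibitor that NF-kB itself induces, had 2447, 2479 and 2475 FPKM in lung, 1134, 1190 and 883 in PB and 159.6, 165 and 158 in BM. *Tnfaip3*, which encodes the ubiquitin-editing inhibitor A20, had 726, 743 and 751 FPKM in lung, 77.8, 80.5 and 61.4 in PB and 5.33, 6.26 and 5.84 in BM. Both inhibitors rose, with log2 fold changes of 3.93 (SE 0.02) and 6.77 (SE 0.05), and *Nfkbiz* was at 5.0. *Icam1*, an adhesion molecule under NF-kB control, rose from 1.99, 2.22 and 1.93 FPKM in BM to 210.4, 219.5 and 212 in lung. The survival gene *Bcl2a1b* had 219, 196 and 201 FPKM in lung and 2.52, 2.03 and 2.00 in BM, and is uncertain as a single gene because near-identical copies can share its reads. *Ikbkg*, the regulatory subunit of the kinase that activates NF-kB, was the member that fell, by 1.11 on the log2 scale, and at -0.60 it was not a DEG after rescaling. *Nfkb1*, *Ikbkb*, *Cflar* and *Traf2*, named here after their values were seen, lay between -0.82 and -0.17 and were not DEGs. The promoters found for 23 of the 27 genes held the NF-kB consensus in 34.4% of cases.

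Immediate early genes, whose transcripts appear within minutes of a stimulus and are short-lived, rose in 26 of 33 cases and fell in 1. *Dusp1* had 4508, 4560 and 4503 FPKM in lung, 3783, 3796 and 3713 in PB and 353, 351 and 353 in BM. *Fosb*, an AP-1 subunit, had 248, 251 and 252 FPKM in lung, 74.6, 78.3 and 59.0 in PB and 1.09, 0.767 and 1.30 in BM. *Dusp2*, a nuclear MAP kinase phosphatase, had 319, 334 and 339 FPKM in lung, 17.2, 18.1 and 13.8 in PB and 0.773, 0.416 and 0.774 in BM. PB stood near lung for *Dusp1* and between the tissues for *Fosb* and *Dusp2*, and the log2 fold changes between lung and BM were 3.68, 6.95 and 7.65. *Junb*, the most abundant AP-1 gene of the list, was as high in PB (2435, 2519 and 1963 FPKM) as in lung (2376, 2432 and 2364), above BM (679.5, 705 and 696). *Rhob*, a small GTPase of endosomes, was the member that fell, by 1.5, and it was not a DEG after rescaling. It was highest in PB, with 247, 251 and 247 FPKM. These genes are known to respond to the handling of tissue as well as to stimuli in the animal, and because the preparation of the suspensions differed between the tissues, handling and tissue cannot be told apart for them.

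**Figure D4:**
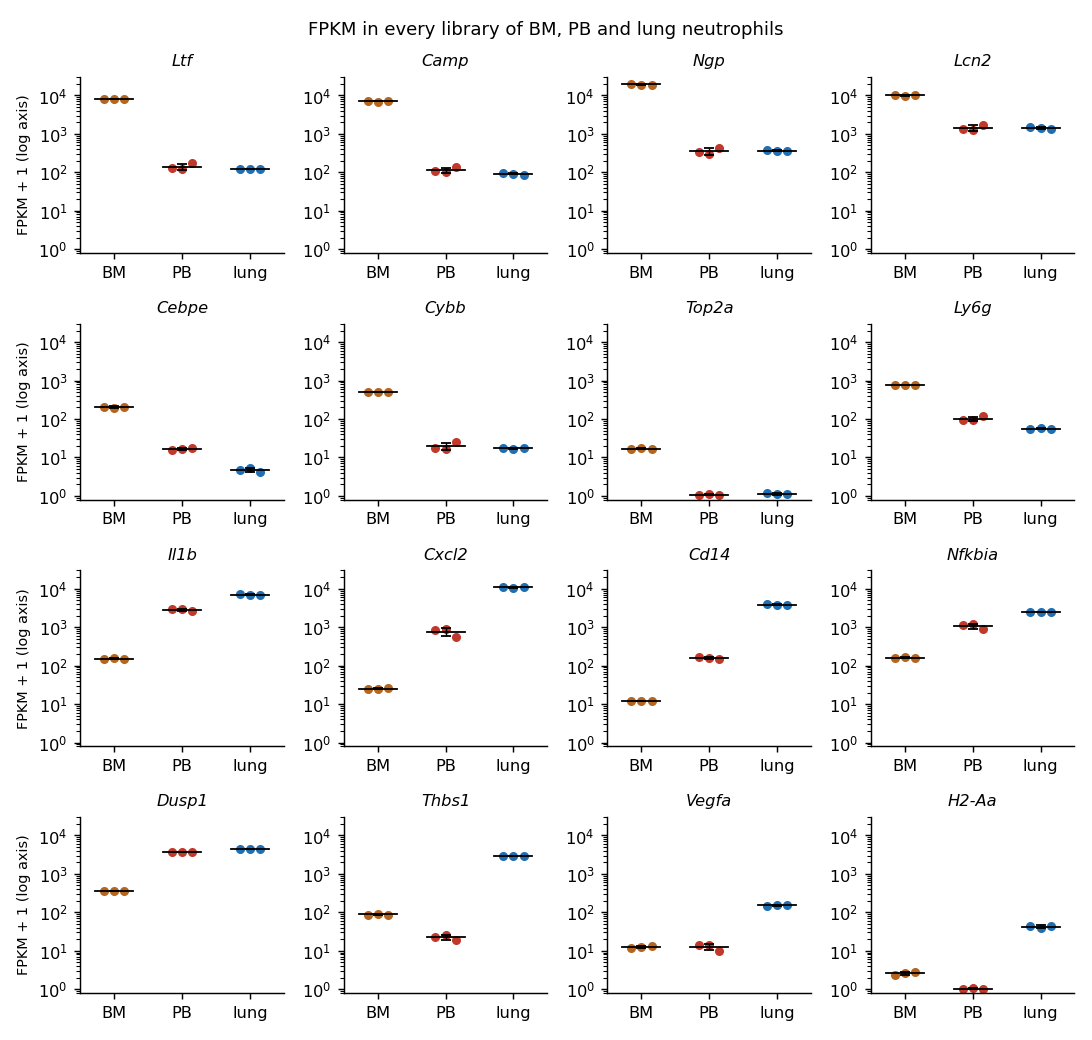
FPKM + 1 on a log axis for 16 genes in each of 3 libraries of BM (brown), PB (red) and lung neutrophils (blue), with the mean as a horizontal bar and the SD as error bars. Granule and precursor genes such as *Ltf* and *Camp* are low in both PB and lung, *Dusp1* is high in both, and *Thbs1*, *Vegfa* and *H2-Aa* are highest in lung with PB near or below BM.

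Receptors for chemoattractants moved both ways, with 6 of 16 higher and 5 lower in lung, and after rescaling 8 higher and 2 lower. *Ccrl2*, an atypical receptor that binds chemerin, had 1133, 1105 and 1088 FPKM in lung, 95.5, 95 and 87.2 in PB and 2.51, 1.54 and 1.90 in BM, a log2 fold change of 8.55 (SE 0.09). *Ptafr*, the receptor of platelet-activating factor, rose from 60.4, 59.5 and 60.1 FPKM in BM to 440.2, 440.2 and 446 in lung. *C5ar1*, the receptor of the complement fragment C5a, rose from 227, 222 and 226 to 646, 617 and 621. *Ltb4r1*, the high-affinity receptor of leukotriene B4, fell from 146, 148 and 149 to 17.3, 17.2 and 16.5. *S1pr4*, a receptor of sphingosine-1-phosphate, fell from 93.0, 94.2 and 95.1 to 3.17, 2.34 and 2.51, with 19.9, 24.9 and 24.6 in PB. *Cxcr2*, the receptor of CXCL1, CXCL2 and CXCL3, had 257, 261 and 256 FPKM in lung, 984, 964 and 1057 in PB and 578, 569 and 584 in BM. Its log2 fold change was -1.16 and, after rescaling, -0.50, where it was not a DEG. The other members that fell, *Fpr2* and *Fpr3* (formyl peptide receptor family), were also not DEGs after rescaling.

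Of 23 cytokine receptor genes, 10 rose and 2 fell, and after rescaling 16 rose and none fell. *Il1r2*, the decoy receptor that captures interleukin-1, had 1059, 1026 and 1046 FPKM in lung, 113, 115 and 104 in PB and 60.2, 63.4 and 59.3 in BM, a log2 fold change of 4.08 (SE 0.03). *Il10ra*, the ligand-binding chain of the interleukin-10 receptor, had 253, 256 and 255 FPKM in lung and 12.3, 12 and 12.7 in BM, and its log2 fold change was 4.26. *Csf3r*, the receptor of G-CSF, had the highest level of the list in lung, 1490, 1504 and 1514 FPKM, but was higher still in PB, with 2453, 2633 and 1996. The members that fell, *Il17ra* at -1.39 and *Tgfbr1* at -1.09, were not DEGs after rescaling.

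Pattern recognition receptors rose in 12 of 30 cases and fell in 5, and after rescaling 16 rose and 3 fell. *Cd14*, the co-receptor that passes bacterial lipopolysaccharide to TLR4, had 3979, 3873 and 3844 FPKM in lung, 171, 162 and 148 in PB and 10.8, 11 and 11.3 in BM, and its mean was 353 times higher in lung than in BM. The log2 fold change was 8.34 (SE 0.03). *Nlrp3*, the sensor of an inflammasome that activates interleukin-1 beta, rose from 38.5, 39.2 and 40.0 FPKM in BM to 664, 682 and 679.9 in lung. The C-type lectins *Clec4d* and *Clec4e*, which recognise mycobacterial glycolipids, rose by 2.53 and 3.32, whereas *Clec4a2*, which carries an inhibitory motif, fell by 2.57. The inhibitory Fc receptor gene *Fcgr2b* fell by 2.26. The other 3 that fell were the receptor genes *Tlr5*, *Tlr7* and *Naip5*, between -1.57 and -1.24.

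Of 22 adhesion genes, 6 were higher and 6 lower in lung, and after rescaling 8 were higher and 3 lower. Apart from *Icam1*, *Itga5*, the alpha chain of the fibronectin receptor, rose most, from 2.19, 2.33 and 2.19 FPKM in BM to 41.1, 41.6 and 41.1 in lung, and PB was at 28.8, 28.8 and 26.4. *Ceacam1* and *Spn*, which encodes the sialomucin CD43, fell by 2.80 and 2.49. *Selplg*, which encodes the selectin ligand PSGL-1, had 474, 469 and 454 FPKM in lung and 322, 325 and 324 in BM. At a log2 fold change of 0.52 it was not a DEG, and it became one after rescaling, at 1.18.

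Factors that act on vessels and matrix rose in 9 of 15 cases and fell in 5. *Thbs1*, which encodes the matricellular protein thrombospondin-1, had 2871, 2923 and 2924 FPKM in lung, 21.6, 24.4 and 18.3 in PB and 85.8, 89.2 and 85.7 in BM. *Vegfa*, the main growth factor of vascular endothelium, had 149, 154 and 150.0 FPKM in lung, 13.1, 13.5 and 9.03 in PB and 10.8, 11.2 and 12.1 in BM. *Hilpda*, a hypoxia-induced inhibitor of lipid droplet breakdown, had 176, 158 and 166 FPKM in lung, 0.460, 0.295 and 0.584 in PB and 0.283, 0.234 and 0.197 in BM. PB lay below BM for *Thbs1* and near it for the other two, and the lung libraries lay above both. The log2 fold changes between lung and BM were 5.05 (SE 0.02), 3.62 (SE 0.04) and 7.08 (SE 0.05). *Ptgs2*, the inducible cyclooxygenase, rose from 8.86, 9.12 and 8.82 FPKM in BM to 1096, 1100 and 1103 in lung. The collagenase gene *Mmp8* and the plasminogen activator gene *Plau* fell by 3.53 and 3.18, and *Mmp9*, *Prok2* and *Vegfb* were the other members that fell. *Vegfb* was at -0.99 after rescaling and was then not a DEG.

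Of 19 genes of the hypoxia response, 7 rose and 2 fell, and the 2, *Vhl* and *Bnip3l*, were not DEGs after rescaling. *Bhlhe40*, a repressor of the circadian and HIF pathways, had 103, 99.4 and 102 FPKM in lung, 7.68, 8.53 and 7.65 in PB and 6.73, 7.46 and 7.08 in BM. Of 21 genes of glucose transport and glycolysis, 4 were higher and 12 lower. Those that rose were the glucose transporter genes *Slc2a1*, at 2.75, and *Slc2a6*, at 3.00, the lactate exporter gene *Slc16a3*, at 2.33, and *Pfkfb3*, at 1.45, whose product makes an activator of phosphofructokinase. The enzyme genes *Hk2* and *Pgk1* fell by 2.99 and 1.88. This count depended on scale, since after rescaling 5 genes rose and 3 fell.

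Iron and redox genes rose in 5 of 15 cases and fell in 3, and after rescaling 7 rose and 1 fell. *Fth1* had 13208, 12697 and 12735 FPKM in lung, 3112, 3013 and 3429 in PB and 1133, 1103 and 1102 in BM, so that 1 gene made up 3.11% of the summed FPKM of lung libraries. Its log2 fold change was 3.53 (SE 0.02), whereas *Ftl1*, the light chain of ferritin, was at 0.63. *Slc7a11*, the cystine importer, and *Txnrd1*, the cytosolic thioredoxin reductase, rose by 4.18 and 3.70, and *Gclm*, the modifier subunit of glutathione synthesis, fell by 1.94. *Srxn1* and *Slc11a1* were the other members that rose, and *Nqo1* and the iron exporter gene *Slc40a1* the others that fell. *Nqo1* and *Slc40a1* were not DEGs after rescaling.

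Of 8 NADPH oxidase genes tested, 3 fell and none rose, and 2 fell after rescaling. The share that fell was near the 36% of all tested genes, and the list median of -0.70 was that of all genes. *Cybb*, the catalytic subunit gp91phox, had 16.9, 15.4 and 16.1 FPKM in lung, 16.6, 15.6 and 23.7 in PB and 508, 508 and 516 in BM, so that PB and lung lay together, and the mean was 31.7 times higher in BM than in lung. The log2 fold change was -4.90 (SE 0.03). *Hvcn1*, the proton channel that sustains the oxidase, fell by 3.49, and *Cyba*, the partner of gp91phox, was at -1.04 and at -0.38 after rescaling, where it was not a DEG. The cytosolic subunit gene *Ncf1* had 719, 724 and 723 FPKM in lung and 998, 1018 and 1023 in BM and was not a DEG, at -0.49. These are transcript levels, and the protein was not measured here.

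Eicosanoid enzymes fell in 6 of 12 cases and rose in 3. Apart from *Ptgs2*, *Pla2g7*, which degrades platelet-activating factor, rose by 1.68 and the leukotriene C4 synthase gene *Ltc4s* by 1.42. *Lta4h*, which makes leukotriene B4, fell from 267, 267 and 269 FPKM in BM to 15.3, 15.1 and 13 in lung, and *Ptgs1*, the constitutive cyclooxygenase, fell by 2.90. *Alox5ap*, the 5-lipoxygenase partner, was the most abundant of the list in BM and at -0.62 was not a DEG.

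Immune checkpoint and antigen presentation genes rose in 10 of 23 cases and fell in 2, and after rescaling 15 rose and 1 fell. *Cd274*, which encodes PD-L1, had 233, 240.3 and 246 FPKM in lung, 31.9, 32.5 and 27.6 in PB and 4.41, 3.95 and 4.08 in BM, a log2 fold change of 5.55 (SE 0.04). The MHC class II gene *H2-Aa* had 43.3, 37.6 and 43.5 FPKM in lung, 0, 0.0508 and 0 in PB and 1.32, 1.65 and 1.78 in BM. *H2-Eb1* had 34.3, 37.5 and 38.5 FPKM in lung, 0.169, 0.130 and 0.161 in PB and 0.875, 0.744 and 0.620 in BM. Both were higher in every lung library than in any PB or BM library, and their log2 fold changes were 4.04 (SE 0.08) and 4.44 (SE 0.07). *Cd74*, the invariant chain, was at 3.59. These 3 genes and *H2-Ab1* make up nearly the whole sum of the dendritic cell markers, which was 174 to 186 FPKM in lung, 11.9 to 16.7 in PB and 9.81 to 11.3 in BM. Of the defining dendritic cell markers, *Xcr1* and *Siglech* were at 0 in all 9 libraries. *Flt3* and *Zbtb46*, also among these markers, had at most 0.102 and 0.0674 FPKM in lung. *Cd79a*, a B cell marker, was at 0 in all lung libraries. What part dendritic cells, macrophages or B cells had in the class II levels was not tested. *Lilrb4a*, an inhibitory receptor gene, had the second highest level of the list in lung, 2190, 2239 and 2267 FPKM against 743, 755 and 729 in BM. The class I gene *H2-D1* had 2844, 2834 and 2768 FPKM in lung and 1566, 1545 and 1510 in BM and was at 0.87. *Vsir*, the gene of the checkpoint protein VISTA, and *Cd200r1* fell by 1.62 and 2.45, of which *Vsir* was not a DEG after rescaling.

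Among genes of cell survival and death, 14 of 31 rose and 9 fell, and after rescaling 15 rose and 3 fell. *Cdkn1a*, the cyclin-dependent kinase inhibitor p21, had 162, 160.3 and 167 FPKM in lung, 2.55, 2.43 and 3.25 in PB and 0.512, 0.737 and 0.348 in BM, a log2 fold change of 6.75 (SE 0.08). *Pim1*, a kinase that favours survival, rose from 77.7, 89.4 and 84.2 FPKM in BM to 1762, 1807 and 1814 in lung, and *Gadd45b* from 56.1, 57.9 and 55.5 to 1689, 1655 and 1628. *Bak1*, a pore-forming protein of mitochondrial apoptosis, and *Casp9*, the initiator caspase downstream of it, fell by 1.92 and 1.75. Interferon-stimulated genes rose in 9 of 29 cases and fell in 2, and after rescaling 15 rose and 2 fell. *Isg15*, a ubiquitin-like modifier, rose from 32.6, 30.0 and 34.4 FPKM in BM to 349.8, 314 and 313 in lung, and *Cxcl10* rose by 3.81. *Ifitm6*, by contrast, fell from 2516, 2360 and 2480 FPKM in BM to 167, 152 and 147 in lung, and *Cmpk2* fell by 2.56.

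Calls among genes of general cell machinery depended on the scale. Over all tested genes 36% were lower in lung, and 17.2% after rescaling. Of 76 nuclear genes of the respiratory chain, 38 fell and none rose, with a median of -1.0 against -0.70 for all genes, and after rescaling 11 fell. Of 65 mitochondrial ribosomal protein genes 34 fell and 3 rose, and of 46 proteasome genes 20 fell and none rose. After rescaling, 15 and 6 of them fell, and the shares for respiratory chain and proteasome genes were then below that of all genes. Of 82 cytosolic ribosomal protein genes, 78 were not DEGs, 3 fell and 1 rose, whereas after rescaling 14 rose and none fell. In the TCA cycle list, which also holds cytosolic isoforms, 9 of 21 genes fell and none rose, whereas after rescaling 1 rose and 3 fell. *Idh1*, a cytosolic source of NADPH, fell furthest of the list, from 36.0, 34.8 and 33.7 FPKM in BM to 1.34, 1.22 and 0.795 in lung. The cytosolic isoform gene *Mdh1* was at -2.37.

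Among 31 cytoskeletal and migration genes, 3 rose and 10 fell, a share of falls below that of all genes tested, and after rescaling 4 rose and 4 fell. *Lmnb1*, the gene of a nuclear lamin, rose from 84.7, 85.7 and 84.2 FPKM in BM to 785, 766 and 773 in lung, *Actg1* and *Lmna* rose by 1.13 and 1.08, and *Anxa3* fell from 148, 145 and 145 to 8.51, 7.01 and 8.16. *Actb* and *Tmsb4x*, among the most abundant genes of both tissues, were at -0.49 and -0.43 and were not DEGs. Of 24 genes of protein folding, 5 rose and 4 fell, and after rescaling 5 rose and none fell, with *Hspa5*, the chaperone of the endoplasmic reticulum, at 2.25. The clock gene *Per1* rose from 23.8, 24.0 and 24.1 FPKM in BM to 233, 241 and 241 in lung, and with *Bhlhe40* and *Ciart* it was 1 of 3 that rose among 5 clock genes tested. A further 11 clock genes were not tested, and the collection times of the libraries are not in the labels.

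Of 7 mechanosensitive channel genes tested, 2 fell and none rose. *Piezo1*, the stretch-activated channel that the study deletes in other mice, had 0.213, 0.382 and 0.280 FPKM in lung, 0.267, 0.414 and 0.323 in PB and 1.27, 1.19 and 1.17 in BM, from 34 to 61 reads per lung library and 200 to 227 per BM library. Its log2 fold change was -0.78 (SE 0.07), so that it did not pass the fold threshold. This scale understates changes near 0, and the mean FPKM of *Piezo1* was 4.15 times higher in BM than in lung. *Trpv2* was the most abundant in lung, with 41.7, 40.7 and 42.4 FPKM, and the members that fell were *Kcnk6*, at -2.10, and *Tmem63a*, at -1.35 and not a DEG after rescaling. Of the 24 tested genes that the study names for its bulk RNA-Seq, 16 rose, 5 fell and 3 were not DEGs. After viewing all tissues together, the study limited its gene comparisons to lung and PB neutrophils, so that its contrast was not the one made here. The lung libraries are shared, and the count is therefore not independent evidence. The list also holds the sort antigen gene *Ly6g* and the candidate channel gene *Piezo1*.

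Some of the widest differences lay outside these lists. *Acod1*, which encodes the enzyme that makes the metabolite itaconate in activated myeloid cells, had 4064, 4054 and 4006 FPKM in lung, 133, 134 and 126 in PB and 15.4, 17.5 and 17.1 in BM. *Ppp1r15a*, which encodes a phosphatase subunit that restores translation after stress, had 607, 611 and 598 FPKM in lung, 103, 102 and 77.1 in PB and 4.36, 3.66 and 3.62 in BM. Both rose, by 7.84 (SE 0.04) and 6.96 (SE 0.05) on the log2 scale, and PB lay between the tissues for both. *Adpgk*, the ADP-dependent glucokinase gene, had 22.7, 22.9 and 22.2 FPKM in lung, 30.3, 32.5 and 26.9 in PB and 893, 913 and 902 in BM. *Ear2*, which encodes an eosinophil-associated ribonuclease, had 0.733, 0.407 and 0.931 FPKM in lung and 64.9, 57.4 and 57.5 in BM. These 2 genes fell by 5.26 and 5.18. *Ear2* made up most of the summed eosinophil markers in BM, where they ran from 65.1 to 73.8 FPKM against 13.8 to 14.9 in lung, and the part of eosinophils in this difference was not tested. The predicted genes *I830127L07Rik* and *4930438A08Rik* fell by 5.70 and 5.40.

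PB levels were nearer to lung for some lists and nearer to BM for others. The differences PB minus BM and lung minus BM share the BM libraries and are given side by side with no test. Specific granule genes had medians of -4.04 in PB and -4.29 in lung relative to BM on log2(FPKM + 1), and mitosis genes -2.51 and -2.52. Immediate early genes had 1.94 and 2.24. For NF-kB genes the values were 0.70 in PB and 3.46 in lung, for chemokines 1.37 and 4.22, and for factors of vessels and matrix -0.25 and 1.40. By these medians specific granule and mitosis genes stood in PB close to where they stood in lung, and NF-kB, chemokine and vessel genes did not. Gelatinase granule genes had medians of -1.07 in PB and -1.83 in lung. The immediate early median covered members that were far apart, such as *Nr4a3*, at 0.22 in PB and 6.44 in lung, and *Dusp2*, at 3.39 and 7.65. Of all 812 DEGs higher in lung, 311 had a PB mean nearer to lung and 501 nearer to BM, and of the 2965 lower ones 1428 and 1537. PB libraries varied more than the others, by 7.45% beyond counting error.

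**Figure D5:**
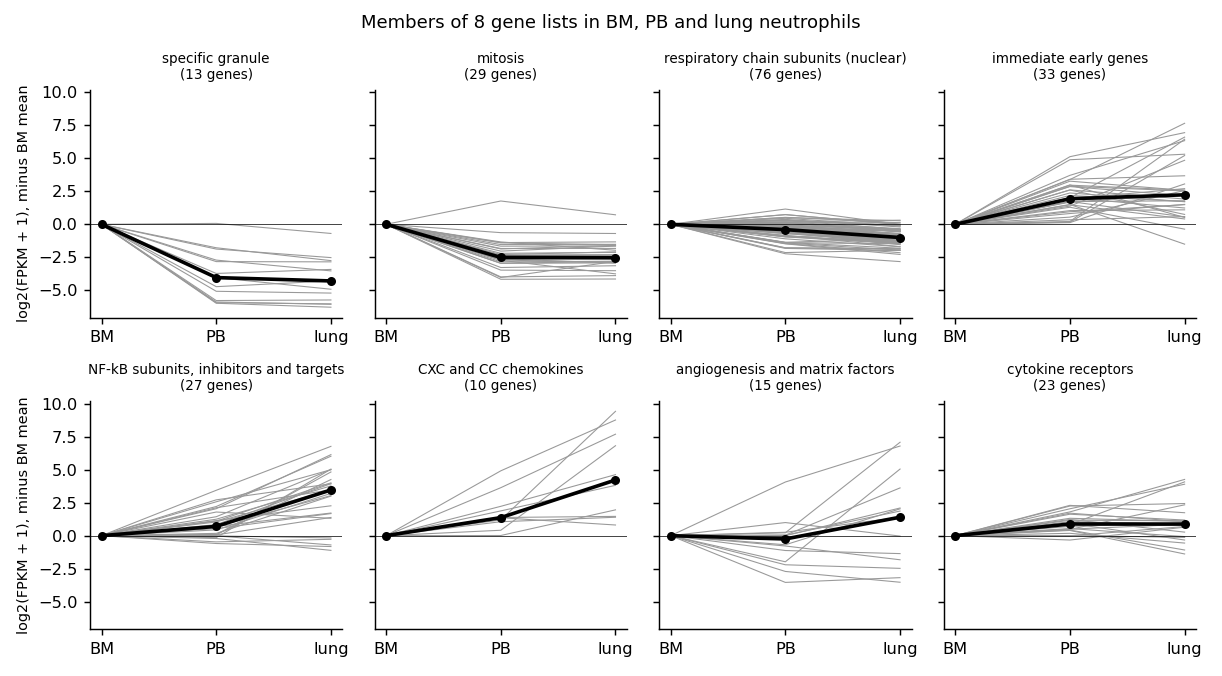
Difference from the BM mean on log2(FPKM + 1) in BM (0 by definition), PB and lung neutrophils, each a mean of 3 libraries, for the tested members of 8 gene lists (grey lines) and their medians (black). The lines join tissues and not times, and medians for specific granule and mitosis genes are as low in PB (-4.04 and -2.51) as in lung (-4.29 and -2.52), whereas that of NF-kB genes is 0.70 in PB and 3.46 in lung.

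At the extreme stood genes that were present in one tissue, with a mean of at least 5 FPKM, and nearly absent from the other, with a mean below 0.5. These sets are a description of the same contrast and were not tested further. In lung there were 36 such genes, and 22 of them had a mean below 0.5 in PB as well. They included 5 immediate early genes, 3 cytokine genes (*Il1a*, *Il23a* and *Csf3*) and 2 chemokine genes (*Cxcl1* and *Cxcl3*). The nuclear receptor gene *Nr4a3* had 88.5, 92.6 and 87.1 FPKM in lung and at most 8 reads in a BM library, and *Hilpda* was also among them. In BM there were 80 such genes, of which 45 were below 0.5 in PB. Among these were 13 mitosis genes, for example *Ccnb1*, *Aurkb* and *Plk1*, and the ficolin gene *Fcnb*. *Nr4a3* and these 3 mitosis genes were named after their values were seen. None of the 36 and none of the 80 reached a mean of 5 FPKM in PB.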

How the data were processed

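Wild-type neutrophils sorted from lung, PB and BM were profiled by bulk RNA-Seq in 3 libraries per tissue, and the lung and BM libraries are compared. The authors trimmed reads with fastp, aligned them to mm10 with HISAT2, counted them with HTSeq (versions not given in the sources used here) and deposited FPKM per gene. The labels and the study's methods name different library kits. The study's methods give an approximate number of clean reads per sample but not the library totals behind the deposited FPKM. Reads were therefore recovered from the steps of the FPKM, which were whole within 0.02 of a read for 100% of the 21878 genes. Recovered reads are counts assigned to genes and not the number of reads sequenced.

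Genes that reached 1 FPKM in 3 or more of the 6 libraries were fitted with limma 3.58.1 (R 4.3.3, robust and trend settings) on log2(FPKM + 1), with Benjamini-Hochberg adjustment over 8236 genes. On simulated data made from these libraries, 100% of 200 genes changed 4 times were recovered among 8236 genes. The changed genes were drawn from those with a mean of at least 5 FPKM, and all others were left unchanged. The share therefore does not carry over to genes at lower levels or to data with a shift of most genes. Rescaling divided each library by its median ratio to the geometric mean. With 3 against 3 libraries an exact permutation test of 1 gene cannot go below p = 0.1, so none was used.

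The members and gene lists were chosen with earlier results of these data known. Named genes were those the study names, the 12 largest rises and 12 largest falls among DEGs with a mean of at least 5 FPKM and no overlap between the tissues, the 2 largest rises, 2 largest falls and 2 highest levels of each list, and the 10 highest levels of each tissue. Members outside this rule that complete a small count were chosen after their values were seen. Promoters are those of the RefSeq table for GRCm38.p6, which matched 6729 of the tested genes, and motifs were searched on both strands with overlaps allowed. Alternatives were another pseudocount, other filters, rescaling, a fixed sum, a fit on recovered reads, a replicate block and leaving out each library. Some items are not reported here.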

Additional observations from a re-analysis of the deposited data

How the results depend on the processing

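The number of DEGs was 3777 (812 higher and 2965 lower in lung). With a mean of at least 5 FPKM required, 2306 genes were called, 1693 of them lower, with a median log2 fold change of -0.60. With the adjusted p alone, 7628 genes were called, 1782 higher and 5846 lower. Rescaling by the median ratio gave 1359 higher and 1415 lower and a median of -0.17, and limma-voom on recovered reads 1812 higher, 1820 lower and a median of -0.023. The median was -0.86 with a pseudocount of 0.1, -0.15 with no filter and -0.56 with libraries scaled to a sum of 1000000. Without any single library the total ran from 3767 to 3814, the higher from 813 to 825, the lower from 2950 to 2999 and the median from -0.71 to -0.70. No call of a named gene changed direction. The medians of some lists did change sign after rescaling. That of cytosolic ribosomal protein genes went from -0.105 to 0.538, and that of adhesion genes from -0.129 to 0.451. Of 208 named genes tested, 172 kept their call after rescaling, 167 on recovered reads and 193 at a fixed sum. Leaving out a library ended at most 2 calls. The labels do not say whether replicate numbers pair the samples. Deviations of libraries with the same number correlated at 0.05, 0.00 and 0.02, which with 3 libraries per tissue cannot decide it. A fit with the replicate block called 3777 genes, with no named call changed. A count of 0 reads allows up to 3 reads. The SE values come from limma and measure the spread between libraries.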

Other observations

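Of 67 replication-dependent histone genes listed, 56 were below the minimum level and were not tested, of which 10 were at 0 in all 6 libraries. Of the 11 tested, 4 rose, none fell and 7 were not DEGs, with a median log2 fold change of 0.47. *Hist1h1c*, a linker histone gene, had 230.4, 242 and 234 FPKM in lung, 484, 484 and 433 in PB and 69.7, 76.9 and 72.8 in BM, and rose by 1.67 on the log2 scale (SE 0.04). *Hist1h2bc* rose from 31.3, 26.0 and 33.0 FPKM in BM to 86.4, 87.9 and 87.8 in lung and was also highest in PB, with 144, 129.9 and 149.6. The other members that rose, *Hist1h2bb* and *Hist1h2be*, were named after their values were seen.

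Of 24 aminoacyl-tRNA synthetase genes, 3 rose and 5 fell, and after rescaling 4 rose and 3 fell. *Eprs*, which charges tRNAs with glutamate and proline, had 11.4, 11.9 and 11.9 FPKM in lung, 0.476, 0.407 and 0.576 in PB and 0.950, 1.20 and 1.02 in BM, a log2 fold change of 2.63. *Dars* and *Rars*, for aspartate and arginine, fell from 30.7, 30.6 and 30.0 and from 11, 10.4 and 11.6 FPKM in BM to 2.19, 2.35 and 2.66 and to 1.62, 1.53 and 1.62 in lung. Of 15 subunit genes of the vacuolar proton pump, 13 were not DEGs, and *Atp6v1g2* and *Atp6v0a2* fell by 1.79 and 1.56, whereas 2 rose and 2 fell after rescaling. Over all DEGs, 157 rose and 138 fell by more than 3 on the log2 scale, and 40 rose and 11 fell by more than 5.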
